A study of Mus musculus with 6 samples.

Results

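The 9 genes described here encode the Notch receptors of the mouse, Notch1 to Notch4, and their membrane-bound ligands Dll1, Dll3, Dll4, Jag1 and Jag2. They were chosen by name, and each was read from the single array feature whose annotation lists that gene alone. All 9 were found among the 30702 genes measured. RNA came from mouse embryonic stem cells of a line labelled iRunx that had been differentiated as embryoid bodies, aggregates in which mesoderm and its derivatives form. At day 4 cells carrying Flk1, a receptor of endothelial and blood precursors, but not PDGFRα, a marker of other mesoderm, were sorted. In the HOXB4 group (n = 3) the cells expressed the homeodomain protein HOXB4 from a retrovirus together with the red marker tdTomato, and in the control group (n = 3) they did not. Both groups share the iRunx line, the day and the sort. The labels do not say whether control cells carried an empty vector, whether a Runx gene was induced, or how many clones the line represents. The question is which genes respond to HOXB4 in such precursors.

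A Notch receptor is cut by proteases when a ligand on a neighbouring cell pulls on it. Its intracellular part then moves to the nucleus, joins the DNA-binding protein RBPJ and switches on genes of the Hes and Hey families. In early mesoderm, Delta-like ligands drive the segmentation of somites, while in forming vessels Notch1, Notch4, Dll4 and Jag1 act in arterial identity and in the emergence of blood stem cells from endothelium.

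No receptor or ligand differed between HOXB4 and control cells beyond the spread between arrays. Values are log2 expression on the scale the authors deposited, which compares arrays for 1 gene and does not rank genes. HOXB4 minus control was estimated with limma, a linear model that pools the spread over all genes, and a gene was called at a Benjamini-Hochberg adjusted p below 0.05 (two-sided). Of the 9 genes, 0 were called, and 0.0% of all genes were called in this comparison. At an unadjusted p of 0.05, 0 of the 9 were counted as well, against 8.19% of all genes (2.23% higher and 5.95% lower in HOXB4 cells). For 0 of the 9 did the HOXB4 values lie entirely above or below the control values, which was so for 13.5% of all genes (3.24% above and 10.2% below). The differences of 7 members were above 0 and those of 2 below, with a median of 0.078, where the median of all genes was -0.039.

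The arrays of each group were not alike. The first principal component held 53.2% of the variance between arrays. HOXB4 1 and HOXB4 3 scored 43.8 and 34.7 on it and HOXB4 2 scored -23.8, beside control 1 at -37.1 and control 3 at -25.0, while control 2 scored 7.46. HOXB4 2 thus shared its sign with controls 1 and 3, and values without it are given below. Antigenomic background features had medians of 3.06 to 3.15 in the 6 arrays and 95th percentiles of 5.05 to 5.68. The percentile was 5.05 in HOXB4 2 and 5.07 in control 3, and 5.52 to 5.68 in the other arrays. It comes from 23 features, so which arrays of a dim gene lie above it depends in part on this cut. Kdr, the gene of the sorted marker Flk1, stood at 14.3, 13.7 and 13.8 in HOXB4 1 to 3 and at 13.7, 14.1 and 13.8 in controls 1 to 3, far above background in all 6. The Pdgfra feature also lists a microRNA, so the marker sorted against could not be read alone, and the Hoxb4 feature likewise lists Mir10a and does not check the transgene.

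Promoter sequence is shown for 3 ligand genes, Jag2 because its difference was the largest of the 9, and Dll1 and Dll3 because both were highest in the same array. Each window runs from 250 bases before to 50 bases after an annotated start and comes from RefSeq on GRCm38.p6. All 9 genes had a window, and Dll1 had one at each of 2 starts, giving 10. Capitals mark the GC box GGGCGG and the E-box CAGGTG on either strand. Both motifs were added after the sequences had been seen. The windows are chr12:112929446-112929745 for Jag2, chr17:15376883-15377182 for Dll1 and chr7:28301736-28302035 for Dll3, all on the minus strand and printed 5′ to 3′ in the direction of transcription.
Jag2: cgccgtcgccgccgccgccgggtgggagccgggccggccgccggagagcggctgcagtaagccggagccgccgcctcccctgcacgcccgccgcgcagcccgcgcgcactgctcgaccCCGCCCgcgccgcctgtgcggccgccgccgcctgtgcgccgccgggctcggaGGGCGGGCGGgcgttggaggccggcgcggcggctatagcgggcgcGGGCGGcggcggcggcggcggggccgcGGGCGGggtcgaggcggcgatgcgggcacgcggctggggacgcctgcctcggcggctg
Dll1: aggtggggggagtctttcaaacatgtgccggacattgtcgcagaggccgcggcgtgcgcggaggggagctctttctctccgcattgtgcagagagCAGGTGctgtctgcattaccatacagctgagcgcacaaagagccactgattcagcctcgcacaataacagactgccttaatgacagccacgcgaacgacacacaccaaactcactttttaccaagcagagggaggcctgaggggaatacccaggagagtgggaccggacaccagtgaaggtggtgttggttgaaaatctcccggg
Dll3: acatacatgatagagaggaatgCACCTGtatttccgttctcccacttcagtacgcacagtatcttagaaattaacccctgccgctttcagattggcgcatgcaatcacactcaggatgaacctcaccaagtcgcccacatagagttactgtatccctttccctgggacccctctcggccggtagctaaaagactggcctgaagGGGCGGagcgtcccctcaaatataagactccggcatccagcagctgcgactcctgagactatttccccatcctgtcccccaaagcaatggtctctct
The Jag2 window consisted of G and C at 86.0%, the Dll1 window at 56.3% and the Dll3 window at 52.0%, where the median of all windows was 52.7%. GGGCGG matched 5 times in the Jag2 window, once in Dll3 and not in this Dll1 window. It was present in 6 of the 10 member windows (those of Notch1, Notch2, Notch3, Dll3, Dll4 and Jag2) and in 35.7% of 32851 windows of the same length. CAGGTG was present in the printed windows of Dll1 and Dll3, 155 and 228 bases before the start, and in 20.2% of all windows. The other Dll1 window, chr17:15375774-15376073, held neither motif, and the upstream start was the one printed. The RBPJ core TGGGAA, the GATA motif AGATAA, the T-box motif AGGTGT, the homeodomain motif TAATTA and the HOX-PBX motif TGATTNAT were searched on both strands and had 0 matches in the 10 windows. They were present in 25.6%, 11.2%, 13.7%, 5.29% and 3.22% of all windows. These matches describe letters in a window and do not show binding.

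Among the receptors, Notch1, which is needed for the first blood stem cells in the mouse embryo, had 8.54, 8.12 and 7.90 in HOXB4 1 to 3, against 7.90, 7.79 and 8.16 in controls 1 to 3. HOXB4 1 was the highest array, and control 3 lay above both HOXB4 2 and HOXB4 3. The means were 8.19 ± 0.32 in HOXB4 cells and 7.95 ± 0.19 in control cells (SD, n = 3 each). The difference was 0.24 (SE 0.18, 95% interval -0.20 to 0.68; adjusted p = 0.71 by limma), and it was 0.066 without HOXB4 1.

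Notch2, a widely expressed receptor, was the steadiest of the 9. It had 10.3, 10.3 and 10.2 in HOXB4 1 to 3, against 10.2, 10.3 and 10.3 in controls 1 to 3, a spread over all 6 arrays of 0.17. Both groups averaged 10.3, with SDs of 0.087 in HOXB4 cells and 0.081 in control cells (n = 3 each). The difference was -0.0001 (SE 0.093), and its 95% interval ran from -0.22 to 0.22.

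Notch3, known from the mural cells of arteries, had 8.24, 8.97 and 8.34 in HOXB4 1 to 3, against 8.28, 8.45 and 8.66 in controls 1 to 3. HOXB4 2 was the highest of the 6 and HOXB4 1 the lowest, so the HOXB4 group spanned the controls. The difference was 0.057 (SE 0.21, 95% interval -0.44 to 0.56), and without HOXB4 2 it turned to -0.17.

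Notch4, a receptor of endothelial cells, had 5.77, 5.45 and 5.62 in HOXB4 1 to 3, against 5.53, 5.62 and 5.46 in controls 1 to 3. Here HOXB4 1 was the highest array and HOXB4 2 the lowest. These levels lay close to the 95th percentiles of the background features and, in 1 control, at or below it, so a change in Notch4 RNA could be compressed. The difference was 0.078 (SE 0.11, 95% interval -0.18 to 0.34), 0.16 without HOXB4 2 and 0.00011 without HOXB4 1.

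**Figure D1:**
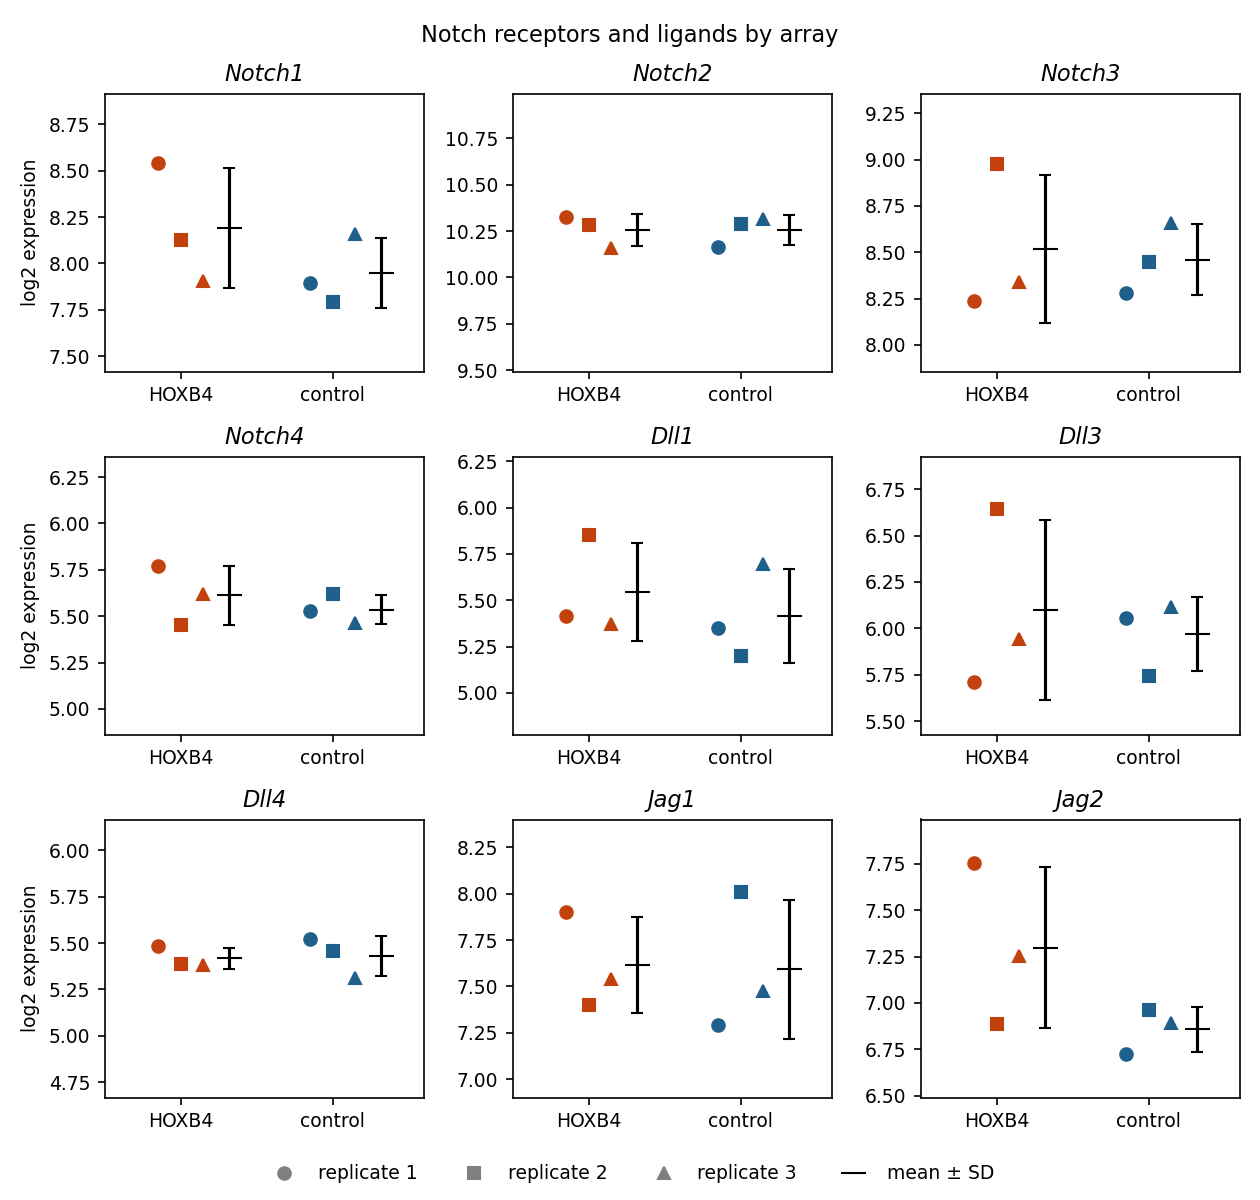
Log2 expression (vertical axes, each spanning the same number of log2 units) of the 9 genes in 3 HOXB4 arrays and 3 control arrays; symbols give the replicate number and black bars the mean ± SD. The groups overlap in all 9 panels, HOXB4 2 is the highest array for Notch3, Dll1 and Dll3, and HOXB4 1 is the highest for Notch1, Notch2, Notch4 and Jag2.

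Among the Delta-like ligands, Dll1, which activates Notch in presomitic mesoderm, had 5.41, 5.85 and 5.37 in HOXB4 1 to 3, against 5.35, 5.20 and 5.70 in controls 1 to 3. HOXB4 2 and control 3 stood above the other 4 arrays, which were all at or below the 95th percentile of their background features. That percentile was lowest in HOXB4 2 and control 3, though their Dll1 values also lay above the highest percentile of any array, 5.68. The means were 5.55 ± 0.27 in HOXB4 cells and 5.41 ± 0.25 in control cells (SD, n = 3 each). The difference of 0.13 (SE 0.18, 95% interval -0.30 to 0.56) was -0.022 without HOXB4 2.

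Dll3, a divergent ligand that in the mouse acts within the cell and does not activate receptors of neighbours, had 5.71, 6.64 and 5.94 in HOXB4 1 to 3, against 6.05, 5.74 and 6.11 in controls 1 to 3. HOXB4 2 was again the highest array, and HOXB4 1 was the lowest, just above its background percentile of 5.68. The SD was 0.49 in HOXB4 cells and 0.20 in control cells (n = 3 each). The difference of 0.13 (SE 0.25, 95% interval -0.46 to 0.71) was -0.14 without HOXB4 2.

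Dll4, the ligand of arterial endothelium and of sprouting tip cells, had 5.48, 5.39 and 5.38 in HOXB4 1 to 3, against 5.52, 5.46 and 5.31 in controls 1 to 3. The highest and the lowest array were both controls. Its range over the 6 arrays was 0.21, and 4 arrays were at or below their background percentile. HOXB4 2 and control 3 lay above theirs only because it was lower in these arrays, and control 3 held the lowest Dll4 value. The difference was -0.011 (SE 0.094, 95% interval -0.23 to 0.21), and it was 0.0044 without HOXB4 2.

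Among the Jagged ligands, Jag1, which in the mouse is needed for vessel remodelling and blood stem cell emergence, had 7.90, 7.40 and 7.54 in HOXB4 1 to 3, against 7.29, 8.01 and 7.47 in controls 1 to 3. Control 2 was the highest array and control 1 the lowest, so the controls spanned all HOXB4 values. The difference was 0.023 (SE 0.22, 95% interval -0.49 to 0.54), and it was -0.13 without control 1, -0.12 without HOXB4 1 and 0.13 without HOXB4 2.

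Jag2, a ligand known from limb and palate development in the mouse, had the largest difference of the 9. It had 7.76, 6.89 and 7.25 in HOXB4 1 to 3, against 6.72, 6.96 and 6.89 in controls 1 to 3. HOXB4 1 and HOXB4 3 lay above every control, whereas HOXB4 2 lay below controls 2 and 3. The means were 7.30 ± 0.44 in HOXB4 cells and 6.86 ± 0.12 in control cells (SD, n = 3 each). The difference was 0.44 (SE 0.22, 95% interval -0.072 to 0.95), or 1.36-fold, with an unadjusted limma p of 0.081 and an adjusted p of 0.62. It was 0.65 without HOXB4 2 (adjusted p = 0.21) and 0.21 without HOXB4 1 (adjusted p = 0.92), so its size rests on which of these arrays is included.

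**Figure D2:**
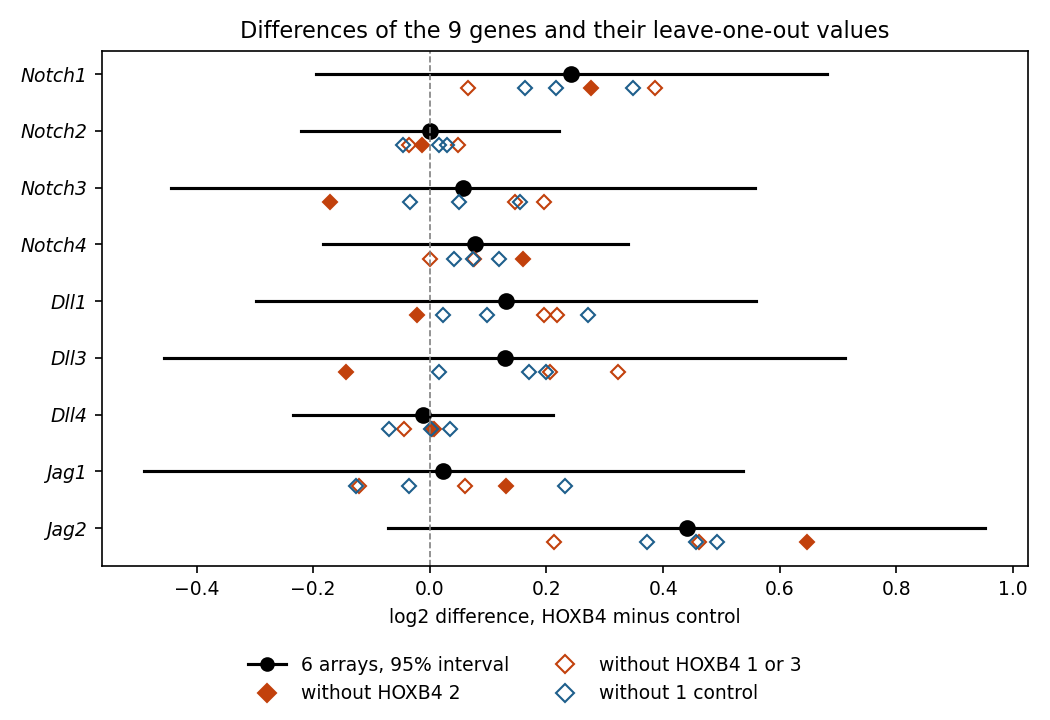
Log2 difference (HOXB4 minus control, horizontal axis) of each gene, with black points and 95% intervals from limma on 6 arrays and diamonds for the value with 1 array left out. Every interval includes 0, and the filled diamonds (without HOXB4 2) lie below 0 for Notch3, Dll1 and Dll3 and farthest to the right for Jag2.

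The members differed in how much they varied between arrays. The SD over the 6 arrays was above that of the median gene (0.164) for 6 members and below it for Notch2, Notch4 and Dll4. Jag2, Dll3 and Jag1 had the largest SDs, 0.37, 0.34 and 0.29. Of the 9 genes, 4 were highest in HOXB4 1, 3 in HOXB4 2, 1 in control 1 and 1 in control 2.

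Marker genes of other cell types were set beside these values. The following order of arrays was noticed after the values had been seen. The mean over 16 of 16 endothelial and haemangioblast markers was 10.7, 8.82 and 9.86 in HOXB4 1 to 3, and 9.04, 10.1 and 9.0 in controls 1 to 3. Its 3 highest arrays, HOXB4 1, control 2 and HOXB4 3, were also the 3 highest for Notch4, Jag1 and Jag2. Etv2, a factor at the start of this lineage and a member of the list, ran the other way, with 9.58, 12.1 and 10.2 in HOXB4 1 to 3 and 12.3, 11.7 and 12.3 in controls 1 to 3. The mean over 8 measured arterial markers of 9 listed did not share the order. It was 7.13, 7.05 and 6.93 in HOXB4 1 to 3 and 7.28, 7.45 and 7.11 in controls 1 to 3, lowest in HOXB4 3. The order of this mean depends on Cxcr4, which had the widest range of the list. Cxcr4 had 5.12, 8.60 and 6.13 in HOXB4 1 to 3 and 9.50, 8.84 and 8.66 in controls 1 to 3. Acvrl1, and Sox17, which is in both lists, had the same 3 highest arrays as the endothelial mean, and the other arterial markers did not. Among the members, Notch1 and Dll4, also named above for vessels, did not share the order of the endothelial mean. The 3 highest arrays were HOXB4 1, control 3 and HOXB4 2 for Notch1, and control 1, HOXB4 1 and control 2 for Dll4.

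The mean over 7 measured primitive streak markers of 8 listed was 7.20, 9.08 and 7.37 in HOXB4 1 to 3, and 8.33, 8.34 and 8.61 in controls 1 to 3. HOXB4 2 was first and control 3 second for this mean, as for Notch3, Dll1 and Dll3. The same 2 arrays were the highest, with control 3 first, for the mean over 5 pericyte and smooth muscle markers. This mean was 6.94, 8.73 and 7.06 in HOXB4 1 to 3 and 8.70, 7.91 and 8.80 in controls 1 to 3, so control 1 came close to HOXB4 2. Rgs5, Pdgfrb and Cspg4 were higher in control 1 than in HOXB4 2, and Acta2 and Tagln were not. HOXB4 2 and control 3 were also the highest arrays for the mean over 6 primitive blood markers. It ranged from 6.01 to 6.75 in HOXB4 cells and from 6.05 to 6.95 in control cells. The widest range in this list was that of Hbb-bh1, with 10.0, 13.6 and 9.84 in HOXB4 1 to 3 and 12.6, 10.7 and 13.5 in controls 1 to 3. Itga2b differed and was highest in HOXB4 1. Klf1 and Hba-x were at or below the background percentile in every array and Spi1 in all but control 3, so their orders are not read. Gata1 was at or below it in some arrays. The mean over 9 of 9 presomitic and paraxial mesoderm markers, a list without Dll1 and Dll3, ranged from 5.09 to 5.65 in HOXB4 cells and from 5.42 to 5.55 in control cells. Like the streak mean, it was highest in HOXB4 2, but this rested on Msgn1. Msgn1 had 6.91, 9.97 and 7.13 in HOXB4 1 to 3 and 8.41, 8.12 and 9.18 in controls 1 to 3. Tbx6 and Lfng were also highest in HOXB4 2, whereas Mesp2, Tcf15, Meox1, Ripply2, Hes7 and Pcdh8 were not. In all 10 lists 0 markers lay below the background median in all arrays, a cut well below the 95th percentile used for the members. Against that percentile, Emcn in the endothelial list, at 4.45 to 5.25, was within background in every array. So were Mesp2, Meox1, Ripply2 and Pcdh8 in the presomitic list, and Gja5 and Bmx in the arterial list. Tbx6 and Lfng in the presomitic list and Gsc and Mesp1 in the streak list were within background in some arrays. The mean over 8 cardiac mesoderm markers ranged from 6.42 to 7.47 in HOXB4 cells and from 7.69 to 8.01 in control cells. Its groups did not overlap, unlike those of the other lists. Among all genes the groups did not overlap for 13.5%. Mef2c differed by 0.85, whereas every other marker of the cardiac list had a difference below 0. Tbx5 was within background in every array, and Nkx2-5 in all but control 3. The lists were chosen with earlier results of these data known, so this separation is not read as a cardiac response. The pluripotency, neural and endoderm means ranged from 6.84 to 7.54, 5.78 to 6.36 and 5.03 to 5.65 in HOXB4 cells, and from 6.54 to 7.10, 5.57 to 5.81 and 5.04 to 5.39 in control cells. The part of cell composition in the members' values was not tested, and in sorted bulk RNA fewer cells of a type and less RNA per cell cannot be told apart.

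**Figure D3:**
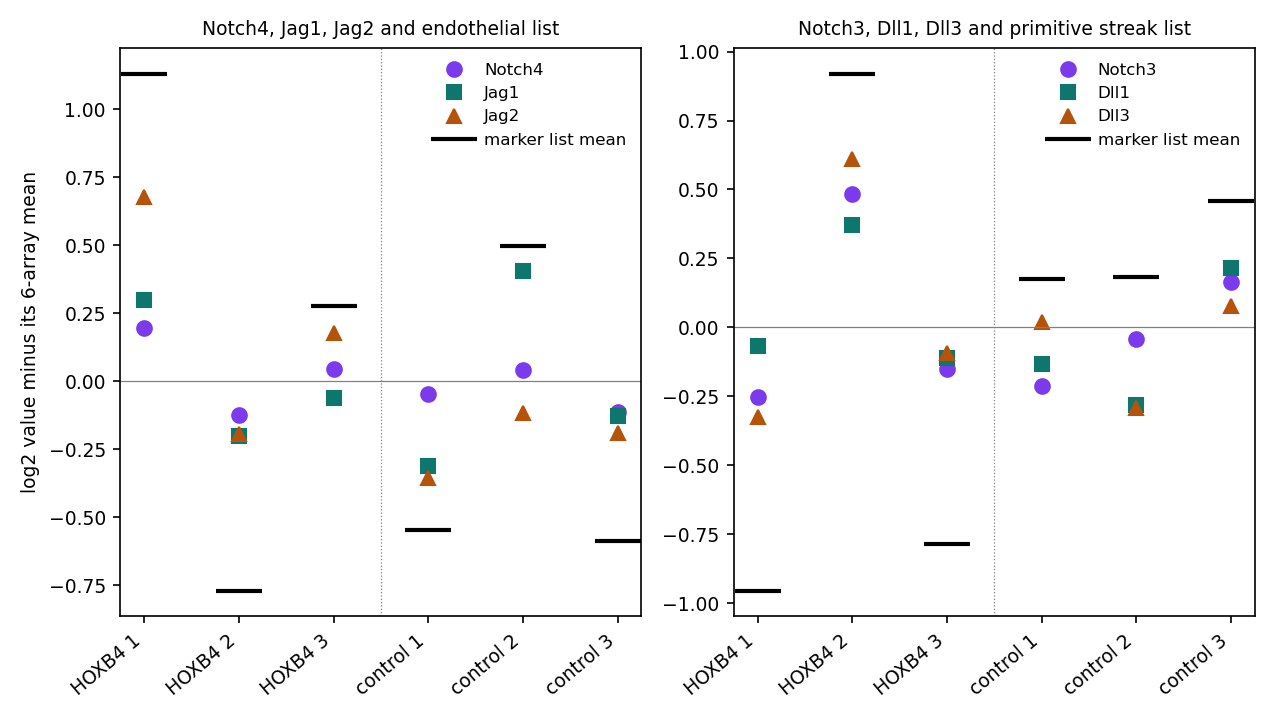
Log2 value minus its mean over the 6 arrays (vertical axes) in each array, for Notch4, Jag1 and Jag2 beside the mean of 16 endothelial markers (left) and for Notch3, Dll1 and Dll3 beside the mean of 7 primitive streak markers (right). On the left HOXB4 1, HOXB4 3 and control 2 hold the 3 highest values of each series, and on the right HOXB4 2 and control 3 hold the 2 highest. Notch1, Notch2 and Dll4 are not drawn.

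Genes with the profile most like that of the 3 most variable members were sought among 4039 or 4040 genes with a mean at or above the median gene and an SD of at least 0.3. These values describe 6 arrays of 2 groups, which share their groups and the axis above. For Jag2 they were Lncpint, a long non-coding RNA (Pearson r = 0.992), Mcam, an adhesion molecule of vessels (r = 0.989), and Creg1, a secreted glycoprotein (r = 0.988), with 322 genes above an r of 0.9. For Dll3 they were Ap1m2, an adaptor of clathrin coats in epithelia (r = 0.985), Frzb, a secreted Wnt antagonist (r = 0.982), and Chmp4c, a membrane scission protein (r = 0.968), with 51 genes above that r. For Jag1 they were Plcl2, a phospholipase C-like protein (r = 0.988), Tcaf1 (r = 0.980) and Mylip, a ubiquitin ligase of lipoprotein receptors (r = 0.974), with 74 genes above it.

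The other genes of the pathway were read from 7 lists by role, 53 genes in all, of which 50 were measured by a feature of their own. Of these 50, 33 lay above the 95th percentile of the background features in all 6 arrays and 10 at or below it in all 6. Of the 50, 0 were called (0 higher and 0 lower), and 3 had an unadjusted limma p under 0.05, which is 6.0% against 8.19% of all genes. The groups did not overlap for 8 of them, 16.0% against 13.5% of all genes. HOXB4 lay above in 4 and below in 4, where the shares of all genes were 3.24% and 10.2%. Among these 8, Dlk2 was at or below the background percentile in all 6 arrays, Aph1b, Mib2 and Dtx4 in 4 and Dlk1 in 2. The median difference of the 50 was 0.027. The remaining 3 were not analysed here.

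The target genes, which RBPJ and Notch switch on, lay lower in HOXB4 cells on average, within the spread between arrays. All 7 had differences below 0, with a median of -0.26, but only 5 of them lay above the background percentile in every array (Hes1, Hes7, Hey1, Hey2 and Nrarp). Of the 7, 0 were called or had groups that did not overlap. Among all genes 60.0% had differences below 0. Hes5 and Heyl were at or below the background percentile in all 6 arrays, so the signs of these 2 targets are not read. Nrarp, which encodes a feedback inhibitor of the Notch complex, had 7.33, 6.95 and 6.74 in HOXB4 1 to 3, against 7.63, 7.37 and 7.13 in controls 1 to 3. Its difference was -0.37 (SE 0.19; adjusted p = 0.63 by limma), or -0.23 without HOXB4 3, and HOXB4 1 lay above control 3. Hes7, the oscillating repressor of the somite clock, differed by -0.16 (SE 0.11; adjusted p = 0.69), or -0.091 without control 1 and -0.26 without control 3.

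The better known targets were held by single arrays. Hey2 encodes a repressor of transcription that acts in arterial and cardiac development. It had 8.70, 7.51 and 8.46 in HOXB4 1 to 3, against 9.01, 8.66 and 8.13 in controls 1 to 3. The Hey2 difference of -0.38 (SE 0.35) was -0.027 without HOXB4 2 and -0.62 without HOXB4 1. Hey1, its close relative, had 12.4, 11.2 and 11.7 in HOXB4 1 to 3, against 11.8, 12.2 and 12.1 in controls 1 to 3, and its difference of -0.28 (SE 0.30) was 0.014 without HOXB4 2 and -0.60 without HOXB4 1. Hes1, the general repressor downstream of Notch, had 11.0, 10.8 and 9.87 in HOXB4 1 to 3, against 10.7, 10.7 and 11.0 in controls 1 to 3, and its difference of -0.26 (SE 0.28) was 0.071 without HOXB4 3 and -0.48 without HOXB4 1. Among the 3, HOXB4 2 was the lowest array for Hey1 and Hey2. These 3 genes were picked for mention after their values were seen. Over the alternatives 6 or 7 of the 7 targets lay below 0, counts that include Hes5 and Heyl, or 5 of 5 with the filter on dim features. The median ran from -0.48 without HOXB4 1 to -0.062 without HOXB4 2.

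**Figure D4:**
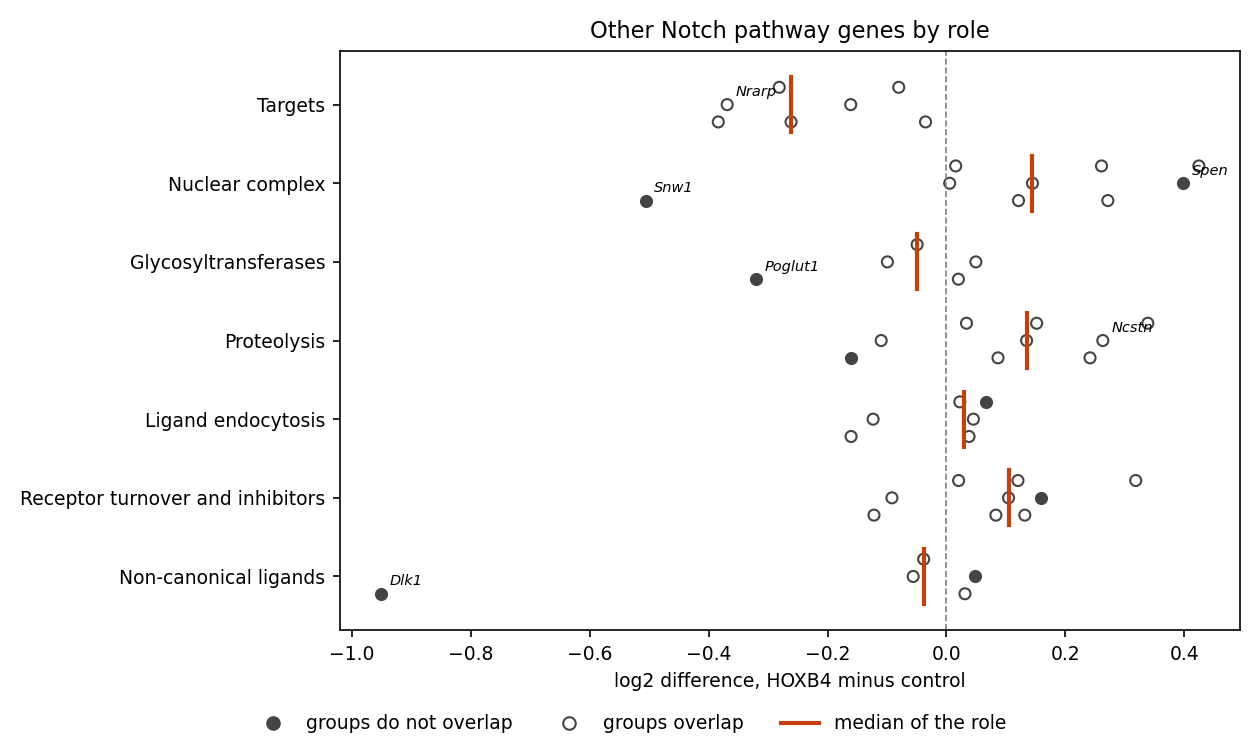
Log2 difference (HOXB4 minus control, horizontal axis) of 50 other Notch pathway genes in rows by role; filled points are genes whose groups do not overlap and bars are the median of a role. All 7 targets lie left of 0, of which Hes5 and Heyl are at background level, and Dlk1 lies farthest from 0 at -0.95.

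Among non-canonical ligands, 2 of 5 differences were above 0 and 3 below. Dlk1, an imprinted Delta-like protein without the receptor-activating domain, had 5.11, 5.85 and 5.27 in HOXB4 1 to 3, against 6.56, 6.39 and 6.13 in controls 1 to 3. All 3 HOXB4 arrays lay below all 3 controls. HOXB4 1 and HOXB4 3 were below their background percentiles of 5.68 and 5.61, so the size of the difference is not read as a fold. On the log2 scale it was -0.95 (SE 0.21, 95% interval -1.46 to -0.44), with an unadjusted limma p of 0.0032 and an adjusted p of 0.60. Over the alternatives it ran from -1.17 without HOXB4 2 (adjusted p = 0.077) to -0.80 without HOXB4 1 (adjusted p = 0.91), so it lay below 0 in each but passed the threshold in none. Dner, a neural Notch ligand, was at or below the background percentile in all 6 arrays.

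In the nuclear complex, 8 of 9 differences were above 0, with a median of 0.14. Snw1, a coactivator that also serves the spliceosome, was the exception, with 11.1, 11.5 and 11.1 in HOXB4 1 to 3, against 11.8, 11.9 and 11.6 in controls 1 to 3. Its groups did not overlap, and its difference was -0.51 (SE 0.14; adjusted p = 0.60 by limma). Spen, an RBPJ corepressor, had 9.07, 8.90 and 8.87 in HOXB4 1 to 3, against 8.19, 8.60 and 8.84 in controls 1 to 3. Its groups did not overlap either, though control 3 came close, and its difference was 0.40 (SE 0.17; adjusted p = 0.60), or 0.22 without control 1. Control 1 was the lowest array for Spen, Rbpj, Maml2, Maml3, Kdm5a and Hdac1. Without control 1, Maml1 and Hdac1 turned to -0.055 and -0.030, and the other differences above 0 kept their sign.

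The glycosyltransferases, which decorate the receptors and tune ligand choice, had 2 of 5 differences above 0. Poglut1, which adds glucose to receptor repeats, had 8.64, 8.75 and 8.59 in HOXB4 1 to 3, against 9.08, 9.05 and 8.81 in controls 1 to 3, without overlap. It differed by -0.32 (SE 0.11; adjusted p = 0.60 by limma), and Lfng, a fringe enzyme of the somite clock, by -0.099 (SE 0.13), or 0.012 without HOXB4 1 and -0.21 without HOXB4 2. Among the proteases that cut receptors, 7 of 9 differences were above 0, with Ncstn and Aph1b, γ-secretase subunits, at 0.26 (SE 0.16) and -0.16 (SE 0.088). Ncstn was at 0.13 without control 1 and 0.42 without control 3.

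For ligand endocytosis 4 of 6 differences were above 0. Mib1 and Neurl1a, ubiquitin ligases that act on ligands, differed by -0.12 (SE 0.13) and -0.16 (SE 0.17). Mib1 was at -0.012 without HOXB4 3 and -0.21 without HOXB4 1, and Neurl1a at -0.025 without HOXB4 1 and -0.29 without HOXB4 2. For receptor turnover and inhibitors 7 of 9 were above 0. Fbxw7, a ubiquitin ligase component that removes the active receptor fragment, differed by 0.12 (SE 0.089), or 0.072 without control 2. Dtx4, a Deltex ubiquitin ligase, differed by 0.16 (SE 0.081), and its groups did not overlap. Lfng, Aph1b, Neurl1a and Dtx4 were each at or below the background percentile in 4 of 6 arrays. The exceptions were HOXB4 2 and control 3, the arrays with the lowest percentiles.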

How the data were processed

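RNA from 6 samples was hybridised to 1 Affymetrix array each. The deposited values are log2 summaries. Per the submitters' processing notes they were made with Affymetrix Expression Console and RMA. RMA corrects background and equalises the arrays' distributions; their versions and settings are not stated in the labels. Of 65956 features that were not controls, 31258 named 1 gene, 1492 several and 33206 none, after symbols were updated with RefSeq (GRCm38.p6). For each of 30702 genes the single-gene feature with the highest mean was used, and each of the 9 genes had 1 such feature. Depth was read as signal over the background features, and precision is limited by the number of arrays.

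Sample titles gave the groups, and the replicates are independent experiments per the labels. HOXB4 minus control was fitted over all genes by lmFit and eBayes of limma 3.58.1 (R 4.3.3), with Benjamini-Hochberg adjustment over all 30702 and no block. SE is the moderated standard error. The fit was tested on simulated data with independent errors and planted changes larger than those of the members. Such data lack the axis shared by arrays here, so this checks the code and not the power for these genes. Alternatives were the replicate block, 2 scalings, a filter on dim features, 2 rules for features, array weights, 2 priors and leaving out each array. Named genes were the 9 members, the 2 pathway genes per role with the smallest unadjusted p, the 3 genes most like each of the 3 most variable members, and those marked as chosen later. The members and lists were chosen with earlier results of these data known. Figures used Python 3.11.15 and matplotlib 3.10.9.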

Additional observations from a re-analysis of the deposited data

How the results depend on the processing

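In every alternative run, 0 of the 9 receptors and ligands and 0 of the 50 other pathway genes were called by limma. Over all genes 0 were called, except without HOXB4 2, where 46 were (3 higher and 43 lower); leaving out 1 array gave 0 to 46. With the replicate block 0 genes were called. Same-numbered arrays did not deviate together: their deviations from the group means correlated at -0.40, -0.59 and -0.35 over genes, so the numbers are not read as pairs. Notch1, Notch4 and Jag2 stayed above 0 in all 15 alternatives, although Notch4 came to 0.00011 without HOXB4 1.

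The other 6 changed sign. With arrays centred on their median gene, Notch2 was at 0.021 and Dll4 at 0.0095, and with cyclic loess they were at 0.089 and 0.017. With array weights Notch3 was at -0.019 and Jag1 at -0.050. When 1 array was left out, Notch2 ran from -0.046 to 0.048, Notch3 from -0.17 to 0.20, Dll1 from -0.022 to 0.27, Dll3 from -0.14 to 0.32, Dll4 from -0.070 to 0.034 and Jag1 from -0.13 to 0.23. The lowest values of Notch3, Dll1 and Dll3 were those without HOXB4 2. Levels near the background features limit what can be read of Notch4, Dll1, Dll4, the lower Dll3 values and Dlk1.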
